A study of Mus musculus with 8 samples.

Results

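Transcripts of 8 genes for sperm-egg fusion proteins and IZUMO paralogs, *Izumo1*, *Izumo2*, *Izumo3*, *Izumo4*, *Spaca6*, *Tmem95*, *Dcst1* and *Dcst2*, were measured in purified pachytene spermatocytes depleted of the chromatin remodeling subunit ARID1A. They were taken by name from the 21058 genes of the deposited tables after mapping Entrez identifiers to symbols, and all 8 had enough counts to be tested. RNA-seq was performed on 4 *Arid1a* WT and 4 *Arid1a* cKO samples of mouse pachytene spermatocytes, obtained by Sta-Put sedimentation of cells from pooled testes of adult males. Both genotypes carried the floxed *Arid1a* allele, kept on a CD1 background. *Arid1a* cKO males were *Arid1a* fl/fl; *Stra8-Cre* Tg/0, and *Arid1a* WT males were *Arid1a* fl/fl or *Arid1a* fl/+ without the transgene. The *Stra8* promoter drives Cre in spermatogonia, excision is described as inefficient, and cells that escaped it remained in the *Arid1a* cKO samples. The question was how transcript abundance in these cells differs when ARID1A is deficient.

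Fertilization ends with the fusion of the sperm and egg plasma membranes, and the sperm proteins involved are exposed once the acrosome has released its content. IZUMO1, an immunoglobulin superfamily protein, binds the egg receptor JUNO (gene *Izumo1r*). SPACA6, TMEM95, DCST1 and DCST2 are further sperm membrane proteins without which mouse sperm bind eggs but fail to fuse with them. IZUMO2, IZUMO3 and IZUMO4 share the N-terminal IZUMO domain with IZUMO1, and IZUMO3 takes part in building the acrosome. Sperm proteins of this kind are best known from haploid spermatids, the cells that follow meiosis, although transcription of many such genes begins in spermatocytes.

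The 8 genes lie on 6 mouse chromosomes of GRCm38, the build that mm10 names. On chromosome 7, *Izumo1* (Entrez 73456) spans chr7:45621811-45627242 and *Izumo2* (75510) spans chr7:44708698-44719848, both on the plus strand. *Izumo3* (69314) spans chr4:92144318-92147225 on the minus strand, and *Izumo4* (71564) spans chr10:80702015-80705382 on the plus strand. *Spaca6* (75202) spans chr17:17826085-17843010 on the plus strand, and *Tmem95* (100503361) spans chr11:69876054-69878171 on the minus strand. *Dcst1* (77772, chr3:89350219-89365253, minus strand) and *Dcst2* (329702, chr3:89350417-89377643, plus strand) overlap each other on opposite strands.

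RefSeq sequence around the start site (GRCm38.p6, 250 bases before to 50 after) was on hand for 7 of the 8 genes, the exception being *Izumo4*. Each window is placed on 1 start site per gene, and for *Tmem95*, *Izumo3* and *Dcst2* this site lies inside the span given above, which takes in further transcript models. Stretches before the start site of 3 genes that rose in *Arid1a* cKO, and the stretch between the start sites of *Dcst1* and *Dcst2*, are shown because these genes were elevated together. Capitals mark a cAMP response element (TGACGTCA) in *Izumo1* at chr7:45621561-45621810 on the plus strand, its shorter form (TGACG) in *Tmem95* at chr11:69878056-69878263 on the minus strand, and the reverse complement (CAGTT) of a MYB core in *Izumo3* at chr4:92147222-92147471 on the minus strand. The 65 bases between the start sites used for *Dcst1* (89365253) and *Dcst2* (89365319) are chr3:89365254-89365318, read on the minus strand, in which capitals mark nothing.
Izumo1: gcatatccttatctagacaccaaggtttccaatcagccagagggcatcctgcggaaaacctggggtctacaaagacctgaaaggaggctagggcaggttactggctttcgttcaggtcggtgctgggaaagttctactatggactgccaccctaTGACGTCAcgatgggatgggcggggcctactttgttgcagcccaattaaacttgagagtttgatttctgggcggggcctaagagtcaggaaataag
Tmem95: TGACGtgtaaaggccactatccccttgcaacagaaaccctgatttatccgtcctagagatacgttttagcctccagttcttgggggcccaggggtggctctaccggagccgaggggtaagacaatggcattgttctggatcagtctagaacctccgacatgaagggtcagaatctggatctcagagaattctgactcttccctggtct
Izumo3: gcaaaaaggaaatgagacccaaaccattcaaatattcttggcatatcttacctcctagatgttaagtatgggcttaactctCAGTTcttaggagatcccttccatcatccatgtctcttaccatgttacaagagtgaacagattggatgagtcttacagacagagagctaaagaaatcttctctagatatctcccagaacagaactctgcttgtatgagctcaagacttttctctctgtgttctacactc
Dcst1-Dcst2: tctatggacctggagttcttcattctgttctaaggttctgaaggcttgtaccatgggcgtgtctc

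Windows of 300 bases were searched on both strands for letters of binding motifs of factors known from germ cells. The cAMP response element TGACGTCA, with its first base at -96 from the start site, was in the *Izumo1* window only, and 1.79% of the 32851 windows of all genes hold it. The shorter TGACG at its core, which the full element contains, was in the *Izumo1* and *Tmem95* windows and in 20.8% of all windows. The MYB core AACTG was in the windows of *Izumo3*, *Tmem95*, *Dcst1* and *Dcst2* and in 44.8% of all windows. An RFX motif GTTGCC was in the *Spaca6* window (12.5% of all windows), and a SOX core ACAAT was in the *Spaca6* and *Tmem95* windows (31% of all windows). TATAAA was in none of the 7 windows, against 13.6% of all windows. No motif was common to the genes that rose, and a match describes the letters and not the binding of a factor.

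Libraries held 15850961 to 22044507 estimated counts. Counts were compared between genotypes for 17643 genes, those whose counts over the 8 libraries came to 10 or more, and a gene was called at an adjusted p of 0.05 or less. *Arid1a* itself fell from 113 ± 13.8 to 79.7 ± 2.89 CPM (*Arid1a* WT to *Arid1a* cKO, SD, n = 4), CPM being counts scaled to a common library size. Pachytene markers were detected in both genotypes, the most abundant being *Ldhc* at 4355 to 5273 TPM (a level scaled by transcript length) in *Arid1a* WT and 3652 to 3949 TPM in *Arid1a* cKO. *Piwil1*, another pachytene gene, was at 561 to 630 TPM in *Arid1a* WT and 35.5 to 38.8 TPM in *Arid1a* cKO, the largest fall of the list, and *Spag6*, with the largest rise, was at 31.4 to 33.8 and 209 to 216 TPM. The 12 pachytene markers summed to 7376 to 8395 TPM and 6199 to 6546 TPM in the same order, with 4 higher and 7 lower. Over all genes tested, 36.5% were called higher and 37.5% lower, the shares to set beside this count and the next. Markers of somatic and blood cells summed to 447 to 527 TPM in *Arid1a* WT and 118 to 126 TPM in *Arid1a* cKO (8 of 22 higher, 11 lower, none at 0 in all libraries), and their part in the results below was not tested. The Sertoli gene *Clu* made up most of this sum, at 297 to 342 and 69.3 to 79.2 TPM, the Leydig gene *Insl3* had the largest fall (-3.65), and the macrophage gene *Adgre1* had the largest rise (1.70 on the log2 scale). The samples are labelled biological replicates without stating separate purifications, so p-values measure the spread between these samples.

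Transcripts of 7 of the 8 genes, including *Izumo1* and each of the 4 other genes needed for fusion, rose 4.04-fold to 6.25-fold in *Arid1a* cKO, whereas *Izumo4* fell to 0.726 of its *Arid1a* WT level. The 7 were higher by edgeR's quasi-likelihood test after Benjamini-Hochberg adjustment over all genes tested, a call that 36.5% of all genes received. *Izumo4* was called lower, as were 37.5% of all genes. In CPM, the 4 *Arid1a* cKO libraries all exceeded the 4 *Arid1a* WT libraries for the 7 genes (34.0% of all genes) and were all lower for *Izumo4* (34.9% of all genes). The median log2 fold change of the 8 genes was 2.21, against -0.02 over all genes tested. Log2 fold changes of the 7 elevated genes lay between 2.01 and 2.64, a range that held 6.56% of all genes tested, and 2.17% of genes rose further.

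Values of 15 spermatid markers moved with these genes. All 15 of 15, the protamines and transition proteins among them, were called higher, against 36.5% of all genes. Their log2 fold changes ran from 1.79 for *Tssk6* to 2.39 for *Catsper1*, with a median of 2.16. Their summed level was 7021 to 8020 TPM in *Arid1a* WT and 28650 to 30587 TPM in *Arid1a* cKO, and none was at 0 in any genotype. In RNA from a cell population, a different number of cells of a type and a different amount of RNA per cell cannot be told apart. The part of these cells in the rise of the fusion genes was not tested, and the level of each gene relative to the markers of its own library is given below.

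**Figure D1:**
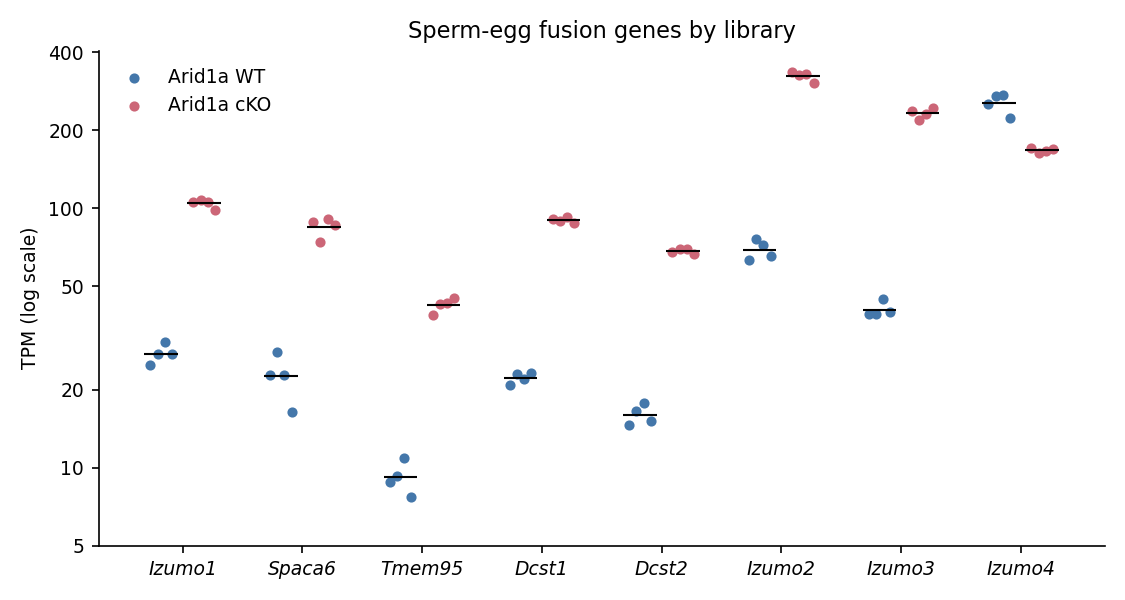
Level of each fusion gene in TPM (log scale) in the 4 *Arid1a* WT and 4 *Arid1a* cKO libraries, with points for libraries and bars for means. Red points lie above blue points for 7 genes, and for *Izumo4* the *Arid1a* cKO libraries (163 to 171 TPM) lie below the *Arid1a* WT libraries (224 to 273 TPM).

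*Izumo1*, the ligand of the egg receptor, was at 24.9, 27.4, 30.4 and 27.4 TPM in *Arid1a* WT replicates 1 to 4 and at 106, 108, 106 and 98.3 TPM in *Arid1a* cKO replicates 1 to 4. The genotypes did not overlap, and the lowest *Arid1a* cKO value was that of replicate 4. On the count scale *Izumo1* went from 26.3 ± 1.29 to 111 ± 4.78 CPM (mean ± SD, n = 4), for a log2 difference of 2.07 (standard error (SE) 0.05, Benjamini-Hochberg adjusted p = 1.51e-13 in edgeR's quasi-likelihood test). The egg receptor gene *Izumo1r* had too few counts to be tested and did not exceed 0.123 TPM in any library.

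Among the sperm membrane proteins that act beside IZUMO1, *Spaca6*, another immunoglobulin superfamily member, was at 22.7, 28.0, 22.8 and 16.4 TPM in *Arid1a* WT replicates 1 to 4 and at 88.4, 74.4, 90.8 and 86.1 TPM in *Arid1a* cKO. Replicate 4 was the lowest *Arid1a* WT library and replicate 2 the lowest *Arid1a* cKO library, and the genotypes did not overlap. The count went from 10.1 ± 0.969 to 40.6 ± 4.11 CPM (mean ± SD, n = 4), for a log2 difference of 2.01 (SE 0.09, edgeR adjusted p = 3.77e-11).

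*Tmem95* was the least abundant of the 8 genes in both genotypes, at 8.77, 9.31, 10.9 and 7.68 TPM in *Arid1a* WT and 38.8, 42.6, 43.2 and 45.3 TPM in *Arid1a* cKO. Replicate 4 was the lowest of the *Arid1a* WT libraries and the highest of the *Arid1a* cKO libraries. Its log2 fold change was 2.36 (standard error 0.08, edgeR adjusted p = 2.52e-12), from 6.53 ± 0.732 to 33.4 ± 1.79 CPM (SD, n = 4).

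*Dcst1* and *Dcst2* encode paired multi-pass membrane proteins that stabilise each other in sperm. *Dcst1* was at 20.8, 22.9, 21.9 and 23.2 TPM in *Arid1a* WT and 90.9, 89.4, 92.9 and 87.7 TPM in *Arid1a* cKO. *Dcst2* was at 14.6, 16.5, 17.7 and 15.1 TPM in *Arid1a* WT and 68.1, 69.7, 70 and 66.7 TPM in *Arid1a* cKO. The genotypes did not overlap for either gene, and *Dcst1* exceeded *Dcst2* in all 8 libraries. Log2 fold changes were 2.17 (standard error 0.05, edgeR adjusted p = 7.26e-14) for *Dcst1*, from 33.3 ± 1.71 to 150 ± 4.15 CPM (SD, n = 4), and 2.25 (standard error 0.05, adjusted p = 5.94e-14) for *Dcst2*, from 23.5 ± 1.21 to 112 ± 2.35 CPM (SD, n = 4). Their annotated spans overlap, but *Dcst2* transcripts of GENCODE M21 share no word of 31 bases with those of *Dcst1*.

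The IZUMO paralogs differed from one another. *Izumo2* was at 63.0, 76.5, 72.0 and 65.5 TPM in *Arid1a* WT and 336, 328, 331 and 306 TPM in *Arid1a* cKO, where it was the most abundant of the 8 genes. Its counts rose from 19.3 ± 0.988 to 100 ± 4.58 CPM (mean ± SD, n = 4), for a log2 difference of 2.37 (SE 0.06, edgeR adjusted p = 7.83e-14). *Izumo3*, the paralog of acrosome building, was at 39.1, 39.1, 44.7 and 39.7 TPM in *Arid1a* WT and 237, 220, 232 and 245 TPM in *Arid1a* cKO. It had the largest rise of the 8 genes, from 26.9 ± 1.24 to 168 ± 7.96 CPM (mean ± SD, n = 4), for a log2 difference of 2.64 (SE 0.06, edgeR adjusted p = 4.94e-14).

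*Izumo4*, whose protein lacks the membrane anchor of IZUMO1, was at 252, 271, 273 and 224 TPM in *Arid1a* WT and at 171, 163, 167 and 170 TPM in *Arid1a* cKO. Each *Arid1a* cKO library was below each *Arid1a* WT library, and replicate 4 was the lowest of the latter. On the count scale it fell from 150 ± 11.2 to 109 ± 3.34 CPM (mean ± SD, n = 4), for a log2 difference of -0.46 (SE 0.06, edgeR adjusted p = 3.87e-06). Log2 fold changes at or below that of *Izumo4* were found for 33.6% of all genes tested.

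**Figure D2:**
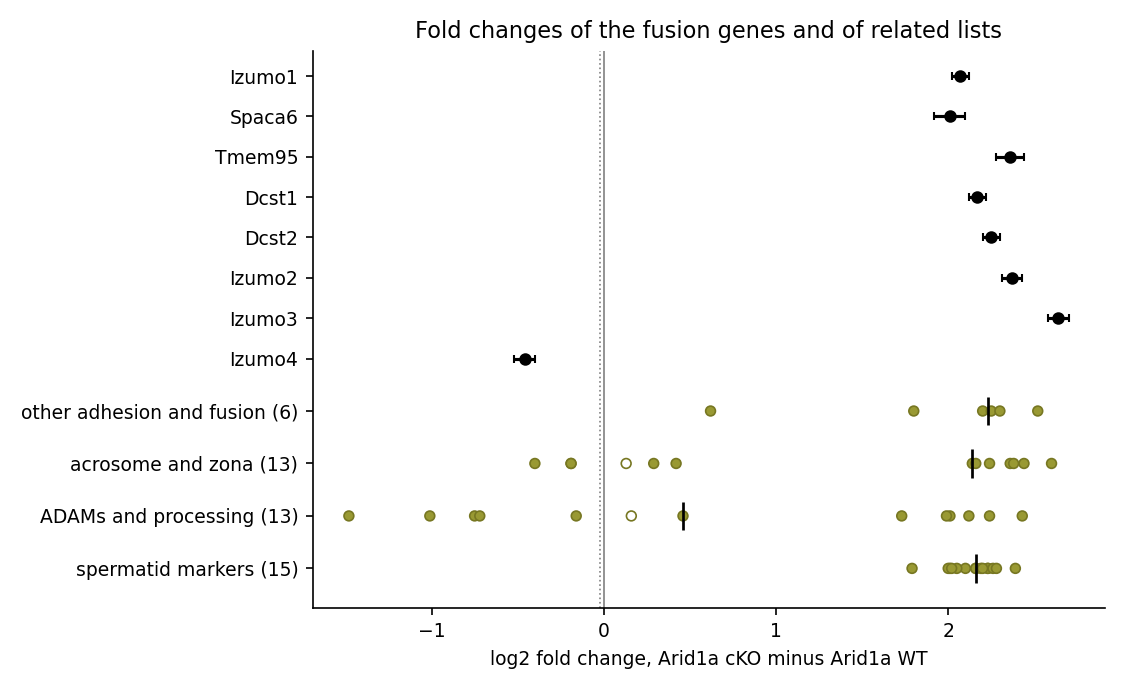
Log2 fold change (*Arid1a* cKO minus *Arid1a* WT) of the 8 fusion genes, with standard errors (SE) from edgeR, above the single genes of related lists, where filled points were called, open points were not and black ticks are medians; the dotted line is the median of all genes at -0.02. The 7 elevated genes lie between 2.01 and 2.64, with *Izumo3* at 2.64 above each of the 15 spermatid markers (1.79 to 2.39), and *Izumo4* lies at -0.46.

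Levels per transcript length put the genes in a different order in each genotype. In *Arid1a* WT the order of mean TPM was *Izumo4* (255 ± 22.7), *Izumo2* (69.2 ± 6.17), *Izumo3* (40.7 ± 2.74), *Izumo1* (27.5 ± 2.25), *Spaca6* (22.5 ± 4.76), *Dcst1* (22.2 ± 1.11), *Dcst2* (16.0 ± 1.40) and *Tmem95* (9.17 ± 1.34, SD, n = 4 throughout). The values of *Spaca6* overlapped those of its neighbours *Izumo1* and *Dcst1*, and no other neighbours in this order overlapped. In *Arid1a* cKO, *Izumo2* (325 ± 13.5) and *Izumo3* (234 ± 10.1) stood above *Izumo4* (168 ± 3.47). *Izumo1* (105 ± 4.29), *Dcst1* (90.2 ± 2.23), *Spaca6* (84.9 ± 7.27), *Dcst2* (68.6 ± 1.54) and *Tmem95* (42.5 ± 2.71, SD, n = 4 throughout) followed, with overlap only between *Dcst1* and *Spaca6*. Summed over the 8 genes, the level was 419 to 494 TPM in *Arid1a* WT and 1096 to 1137 TPM in *Arid1a* cKO. TPM of all genes summed to 780735 to 811443 in *Arid1a* WT and to 880901 to 886412 in *Arid1a* cKO. A part of each TPM difference between genotypes therefore reflects this unequal total.

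*Izumo4* made up most of the IZUMO paralog RNA in *Arid1a* WT and the third largest part in *Arid1a* cKO. Its share of the summed TPM of the 4 paralogs was 65.0% ± 1.55 (62.8 to 66.5%, SD, n = 4) in *Arid1a* WT and 20.2% ± 0.387 (19.9 to 20.7%, SD, n = 4) in *Arid1a* cKO. *Izumo2* went from 17.6% ± 0.934 to 39.1% ± 1.20, *Izumo3* from 10.4% ± 0.705 to 28.1% ± 1.27 and *Izumo1* from 7.03% ± 0.536 to 12.6% ± 0.470 (SD, n = 4). The summed level of the 4 paralogs was 393 ± 29.9 TPM in *Arid1a* WT and 831 ± 15.4 TPM in *Arid1a* cKO (SD, n = 4).

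**Figure D3:**
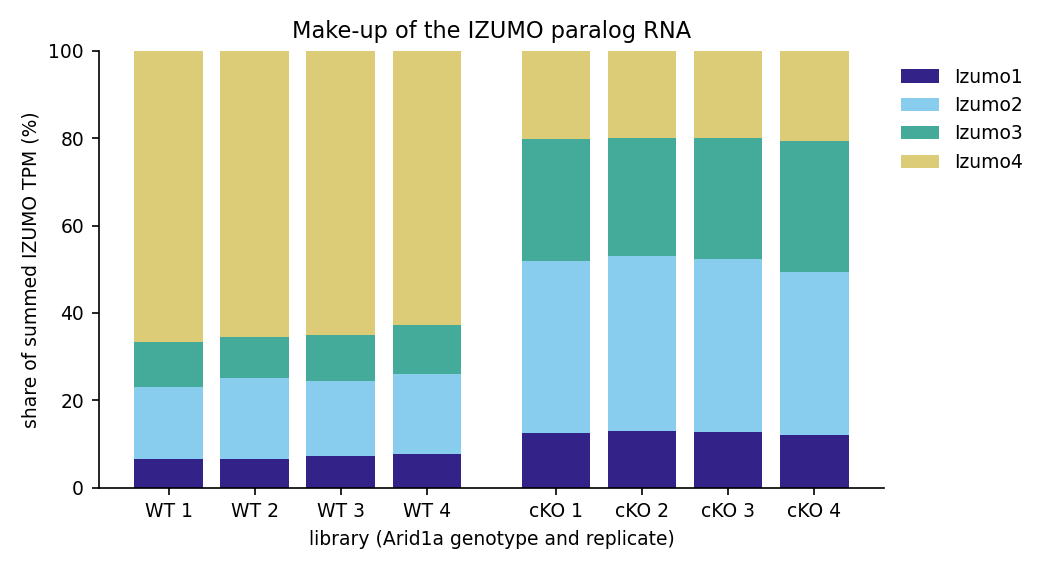
Share of the summed TPM of *Izumo1*, *Izumo2*, *Izumo3* and *Izumo4* (%) in each library. The *Izumo4* part takes 62.8 to 66.5% in the *Arid1a* WT libraries and 19.9 to 20.7% in the *Arid1a* cKO libraries.

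Ratios between 2 genes of the same library do not depend on how libraries are scaled to one another. Log2 ratios of TPM, with a pseudocount of 0.1, were compared between genotypes for all 28 pairs with a two-sided exact permutation test, which with 4 libraries against 4 cannot go below p = 0.0286. All 7 pairs with *Izumo4* shifted, by 2.53 log2 units against *Izumo1* up to 3.12 log2 units against *Izumo3* (exact permutation p = 0.0286, adjusted p = 0.0471 over the 28 pairs). *Izumo3* rose relative to each of the other genes as well, by 0.29 against *Izumo2* and by 0.60 against *Izumo1* (adjusted p = 0.0471 by the same exact test). In all, 17 pairs passed. The shift of *Izumo3* against *Izumo2* was not called without *Arid1a* WT replicate 2 (0.22 in size, exact permutation test, adjusted p = 0.0889), and that against *Tmem95* was not called with counts in place of TPM (0.28, adjusted p = 0.0762).

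Other pairs did not pass. The log2 ratio of *Dcst1* to *Dcst2* was 0.47 ± 0.13 in *Arid1a* WT and 0.39 ± 0.03 in *Arid1a* cKO (SD, n = 4, difference -0.08, exact permutation test, adjusted p = 0.333). Without *Arid1a* WT replicate 3 this difference was -0.14 and passed (exact permutation test, adjusted p = 0.0471). The ratio of *Izumo1* to *Spaca6*, whose proteins meet on the sperm surface, was 0.31 ± 0.34 and 0.30 ± 0.16 (SD, n = 4, difference -0.01, exact permutation test, adjusted p = 1.00). Leaving out any 1 of the 4 *Arid1a* cKO libraries left 12 or 13 pairs at an unadjusted p of 0.05 or less and none below 0.0615 after adjustment, whereas 16 to 18 pairs passed without any 1 *Arid1a* WT library. The differences themselves remained close to those above without an *Arid1a* cKO library, at 2.50 to 2.56 for *Izumo1* against *Izumo4* and 3.11 to 3.14 for *Izumo3* against *Izumo4*, and at least 16 of the 28 pairs must reach the smallest p for any to pass.

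**Figure D4:**
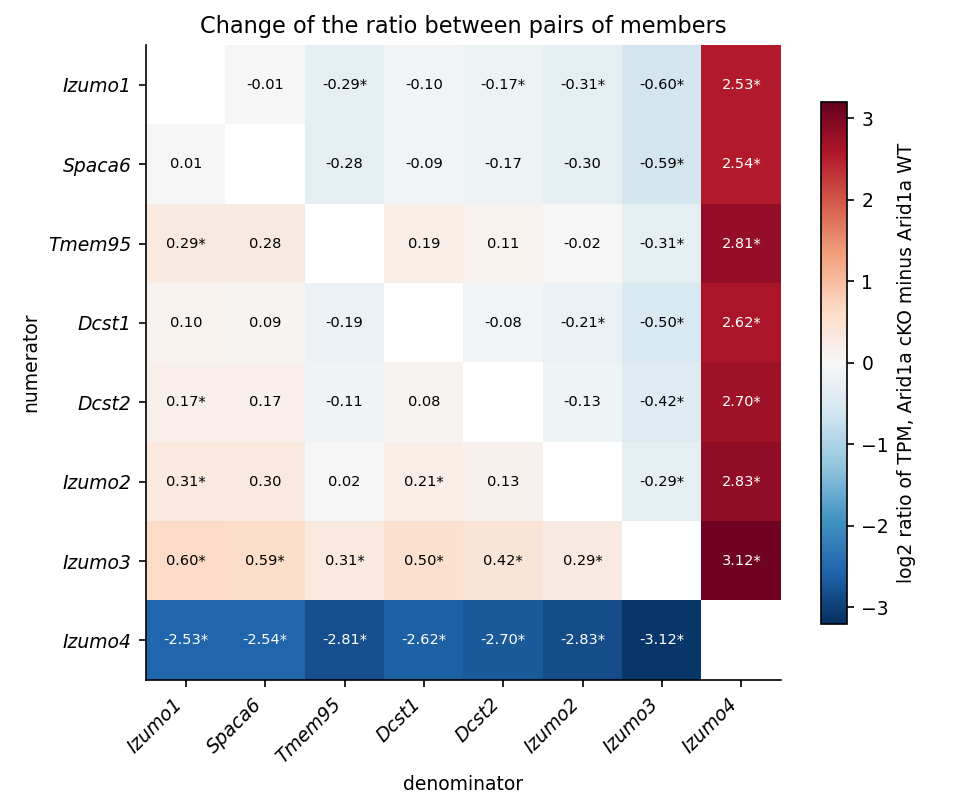
Difference (*Arid1a* cKO minus *Arid1a* WT) of the log2 ratio of TPM between the gene of the row and the gene of the column, with asterisks at an adjusted p of 0.05 or less in the exact permutation test over 28 pairs. Row and column of *Izumo4* hold the largest differences (2.53 to 3.12 in size), *Izumo3* differs from all others by 0.29 or more, and *Dcst1* and *Dcst2* differ by 0.08.

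Relative to the 15 spermatid markers, *Izumo4* and *Izumo3* were the genes whose genotypes did not overlap, and the other 6 genes differed by 0.23 log2 units or less. Of all genes tested, 2.76% lay above without overlap on this measure, as *Izumo3* did, and 88.4% lay below, as *Izumo4* did. The measure was the log2 CPM of a gene minus the mean log2 CPM of the markers of the same library. For *Izumo1* it was -2.09 ± 0.05 in *Arid1a* WT and -2.16 ± 0.07 in *Arid1a* cKO (SD, n = 4), a difference of -0.07. Differences were 0.03 for *Dcst1*, 0.10 for *Dcst2*, -0.14 for *Spaca6*, 0.20 for *Tmem95* and 0.23 for *Izumo2*, and the genotypes overlapped in each. *Izumo3* stayed below the mean of the markers but rose by 0.50 log2 units more than they did, from -2.06 ± 0.04 to -1.56 ± 0.06 (SD, n = 4), with no overlap. *Izumo4* went from 0.42 ± 0.13, above the mean of the markers, to -2.18 ± 0.03, a difference of -2.60 with no overlap. In the two-sided exact permutation test, *Izumo3* and *Izumo4* reached the smallest p of 0.0286, and 0 of the 8 genes passed after adjustment over the 8 (lowest adjusted p = 0.0914). At least 5 genes would have to reach the smallest p for any to pass, so the adjusted values do not bear on the size of these differences.

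**Figure D5:**
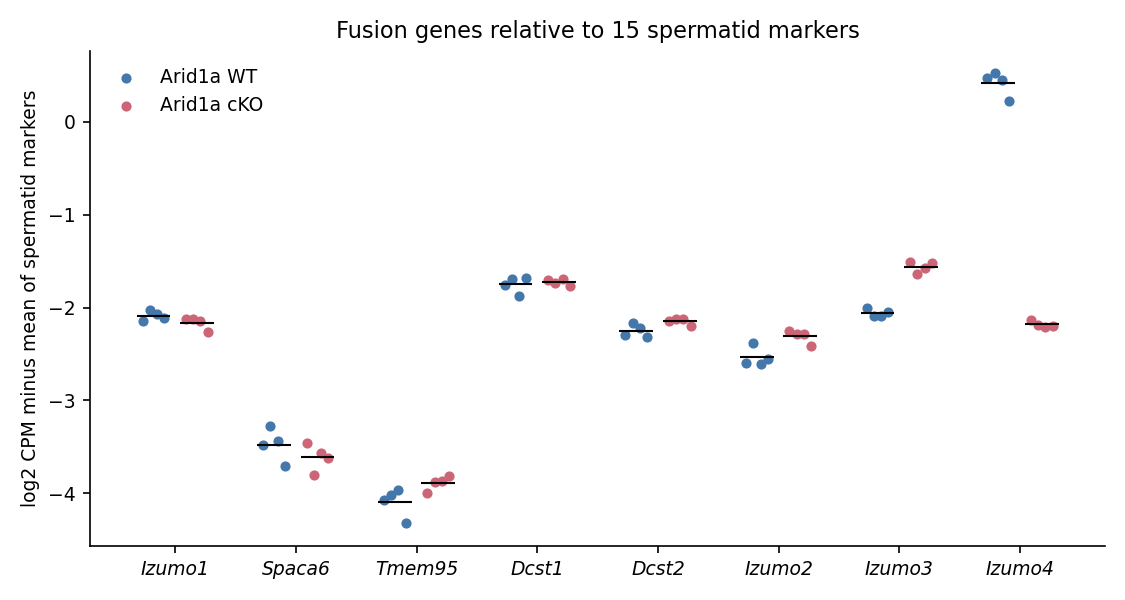
Log2 CPM of each fusion gene minus the mean log2 CPM of 15 spermatid markers in the same library, with points for libraries and bars for means. The genotypes overlap for *Izumo1*, *Spaca6*, *Tmem95*, *Dcst1*, *Dcst2* and *Izumo2*, *Izumo3* is 0.50 higher in *Arid1a* cKO, and *Izumo4* drops from 0.42 to -2.18.

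Other sperm proteins of gamete adhesion and fusion changed in the direction of *Izumo1*. All 6 genes listed were called higher, against 36.5% of all genes, with a median log2 fold change of 2.23. *Llcfc1*, which encodes the fusion factor SOF1, went from 113 to 122 TPM in *Arid1a* WT to 563 to 652 TPM in *Arid1a* cKO, a log2 fold change of 2.52 (standard error 0.05, edgeR adjusted p = 4.17e-14). *Fimp*, listed as *4930451I11Rik*, rose by 2.20 (standard error 0.07), and *Eqtn*, a protein of the acrosomal membrane, rose by 2.25 (standard error 0.06). *Tmem81*, a partner of IZUMO1 and SPACA6, was low at 3.66 to 5.77 TPM in *Arid1a* WT and rose by 1.80 (standard error 0.11). *Spesp1*, of the equatorial segment where fusion takes place, had the smallest rise, 0.62 (standard error 0.06), and the highest level of the 6 in *Arid1a* WT, 172 to 189 TPM.

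Most genes of the acrosome and of zona binding were elevated as well. Of 13 genes, 9 were called higher, 3 lower and 1 was not called, against 36.5% higher and 37.5% lower over all genes. The median log2 fold change of the 13 was 2.14. *Spam1*, the sperm hyaluronidase that disperses the cumulus, rose the most, by 2.60 (standard error 0.06, edgeR adjusted p = 5.40e-14). *Prss21*, a membrane protease, fell by 0.40 (standard error 0.05, edgeR adjusted p = 2.43e-06). The most abundant of the list was *Acrbp*, which binds proacrosin, at 698 to 797 TPM in *Arid1a* WT and 573 to 610 TPM in *Arid1a* cKO. *Zpbp2*, a zona binding protein, was at 346 to 396 and 342 to 371 TPM and was not called (log2 fold change 0.13, edgeR adjusted p = 0.0949).

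Genes of the sperm surface ADAM proteins and of their chaperones and processing enzymes were mixed, with 7 of 13 called higher, 5 lower and 1 not called. Over all genes the shares were 36.5% higher and 37.5% lower. The median log2 fold change of the 13 was 0.46. *Adam1a*, which pairs with ADAM2, had the largest rise at 2.43 (standard error 0.06, edgeR adjusted p = 8.28e-14), and *Tex101*, a germ cell surface protein needed for ADAM3 to reach the sperm surface, the largest fall at -1.48 (standard error 0.07, adjusted p = 5.91e-11). *Clgn*, the chaperone calmegin, fell by 0.75 (standard error 0.05) from 893 to 972 TPM in *Arid1a* WT to 526 to 553 TPM in *Arid1a* cKO. *Adam3* rose by 0.46 (standard error 0.06), from 694 to 731 TPM to 891 to 997 TPM. In these lists, as among the 8 fusion genes, abundant and scarce members in *Arid1a* WT were both present, and the relation of level to direction was not tested.

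Among 12989 other genes whose log2 CPM averaged 1 or more, those most like each fusion gene were found by the root mean square difference of log2 CPM, centred on each gene's mean, over the 8 libraries. *Lelp1* (0.029) and *Ccdc183* (0.035) were nearest to *Izumo1*, *G6pd2* (0.027) and *1700057G04Rik* (0.041) to *Izumo2*, and *1700001L19Rik* (0.044) and *Iqcm* (0.050) to *Izumo3*. *Lrrc69* (0.065) and *Rbl2* (0.073) were nearest to *Spaca6*, *Selenov* (0.058) and *Frat1* (0.066) to *Tmem95*, *Tescl* (0.034) and *Taf9b* (0.035) to *Dcst1*, and *Ttll10* (0.023) and *Stpg1* (0.024) to *Dcst2*. *Izumo4* was nearest to *Prpf38b* (0.023) and *Pds5a* (0.026), which fell by 0.48 and 0.46. This measure mostly picks genes of a similar log2 fold change, such as *Lelp1* (2.06, *Izumo1* 2.07) and *G6pd2* (2.36, *Izumo2* 2.37). Whether these genes are regulated together was not tested. Such likeness was common, in that 456 genes were within 0.2 of *Izumo3* and 2656 within 0.2 of *Izumo4*. Of the fusion genes themselves, *Dcst1* was the nearest to *Izumo1*, at 0.086.

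Of the 10 tested genes within 10 kb of a fusion gene that are not fusion genes themselves, 5 rose, 2 fell and 3 were not called, where 36.5% of all genes were called higher and 37.5% lower. *Rasip1*, whose annotated span begins 295 bases beyond *Izumo1*, rose by 1.04 (standard error 0.11), and 596 of the 2987 words of 31 bases in *Izumo1* transcripts also occur in *Rasip1* transcripts, so their counts may not be fully separate. *Fut1*, 752 bases from *Izumo1* on the other side, was barely detected at a mean of 0.177 CPM in *Arid1a* WT and was not called. *Fgf21*, 6321 bases from *Izumo1*, was also low, at 0.314 ± 0.129 CPM in *Arid1a* WT and 1.46 ± 0.243 CPM in *Arid1a* cKO (SD, n = 4), and rose by 2.21 (SE 0.30, edgeR adjusted p = 9.84e-06), close to the 2.07 of *Izumo1*. *Mob3a*, 195 bases from *Izumo4*, fell by 2.36 (standard error 0.11, edgeR adjusted p = 7.55e-11), and *Ap3d1*, on the other side of *Izumo4*, rose by 0.34 (standard error 0.05). *Has1*, which overlaps *Spaca6* on the opposite strand, fell by 2.91 (standard error 0.20), and *Kctd11*, 93 bases from *Tmem95*, was near 0 and not called. *Acap1*, 3395 bases from *Tmem95*, rose by 1.74 (SE 0.20, edgeR adjusted p = 2.13e-06). *Adam15*, 191 bases from *Dcst1*, rose by 1.38 (standard error 0.09), and *Zbtb7b*, which adjoins *Dcst2*, was not called (log2 fold change -0.19, edgeR adjusted p = 0.295). *Izumo2*, *Izumo3*, *Tmem95* and *Dcst2* shared no word of 31 bases with any other gene, and 22.3% of the words in *Dcst1* transcripts are found on the opposite strand in *Gm10702*, annotated as a pseudogene. The strand setting of the quantification is not given in the sources used here, so whether such reads, or those where *Spaca6* and *Has1* overlap, were separated was not tested.

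The count of a gene divided by its TPM gives a relative effective length, as Salmon estimated it in each library. This length was scaled to the median of 9237 genes and to a mean of 1.00 in *Arid1a* WT. A greater value need not mean longer transcripts, and whether the transcripts used differed between genotypes was not tested. In *Arid1a* cKO the relative effective length was greater by 3.42 to 5.51% for 7 of the 8 genes. For 5 of them (*Izumo1*, *Izumo2*, *Tmem95*, *Dcst1* and *Dcst2*) the genotypes did not overlap (exact permutation test, adjusted p = 0.0457). A rise without overlap was seen for 42.6% of the 9237 genes. *Spaca6* was at 0.872 to 1.14 in *Arid1a* WT and 0.960 to 1.05 in *Arid1a* cKO. Without any 1 *Arid1a* cKO library, 4 genes stayed at an unadjusted p of 0.05 or less and 0 passed after adjustment.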

How the data were processed

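RNA-seq of 4 *Arid1a* WT and 4 *Arid1a* cKO samples was analysed; the genotype and number in each column name gave its sample (0 columns not used). The authors quantified transcripts with Salmon on mm10 annotation, summed them to Entrez genes with tximport and deposited estimated counts, unscaled, and TPM, which Salmon scales over all transcripts. A deposited table of the authors' own log2 fold changes and p-values was not used. Of the 21058 identifiers, 21036 had a RefSeq record.

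Estimated counts were rounded, although the design had assumed whole counts, and tested with edgeR 4.0.16 (TMM, glmQLFit, glmQLFTest) in R 4.3.3. CPM used TMM-adjusted library sizes, log2 CPM a prior count of 2, and the standard error was the log2 fold change over the square root of F. On simulated counts of 17523 genes for this comparison, 100% of 200 genes changed 2-fold were recovered, and 4.31% of calls were unchanged genes. The simulation changed far fewer genes than the 13048 called in the data and gave every gene the same dispersion. It therefore does not give the share of false calls in this comparison. Sequence words came from GENCODE M21 transcripts. The rule named all 8 genes, *Arid1a*, the extremes and up to 2 abundant genes of each list, the 2 most alike genes and those within 10 kb, and some list genes it takes in are not printed. The 8 genes and all lists were chosen with earlier results of these data known. Alternatives were DESeq2 1.42.0, limma 3.58.1 on TPM, other scalings and filters, length offsets, the replicate block and each library left out.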

Additional observations from a re-analysis of the deposited data

Results flagged for a closer look

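Dixon's test for a stray value was applied to 66 groups of 4 libraries, covering CPM, TPM, relative effective length and the ratio to spermatid markers. Of these groups 5 passed, where chance flags about 1 in 20 groups (3.30 of 66). *Izumo3* was at 25.1 CPM in *Arid1a* WT replicate 2, below the 27.5 to 27.7 CPM of the other *Arid1a* WT libraries. In TPM it was replicate 3 that stood apart, at 44.7 TPM against 39.1 to 39.7 TPM. *Dcst2* was at 108 CPM in *Arid1a* cKO replicate 4, below the 113 CPM of each other *Arid1a* cKO library. The relative effective length of *Izumo4* was 1.04 in *Arid1a* WT replicate 3 and 0.986 to 0.989 in the others. That of *Dcst2* was 0.997 in *Arid1a* WT replicate 1, below 1.00 in the others. Each of these gaps is smaller than the difference between genotypes in the same measure, except for the relative length of *Izumo4*, whose genotypes overlap.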

How the results depend on the processing

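Under each alternative run, and without any 1 of the 8 libraries, the same 7 genes were called higher and *Izumo4* lower. Over the alternatives the log2 fold change of *Izumo1* lay between 1.77 and 2.11, that of *Izumo3* between 2.37 and 2.68 and that of *Izumo4* between -0.75 and -0.43. The median of all genes moved to -0.12 without TMM and to -0.24 with TPM rescaled to a common sum, an alternative chosen after seeing the data. Relative to these medians, *Izumo4* was at -0.45 and -0.52 and the other genes were at 2.01 or more. With rescaled TPM, 38.9% of all calls were higher, against 49.3%. Deviations of same-numbered libraries correlated at 0.202, 0.042, 0.094 and -0.092. Libraries of different numbers were not compared in this way, so whether the replicate numbers pair the samples was not settled. With the number as a replicate block 13100 genes were called, against 13048, and *Izumo4* was at -0.46.

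Without 1 library, 0 to 18 of the 28 pairs of genes and 0 to 6 of the 8 relative lengths passed after adjustment. The counts of 0 arose without an *Arid1a* cKO library, when 12 or 13 pairs and 4 lengths were at an unadjusted p of 0.05 or less. Without an *Arid1a* WT library 16 to 18 pairs and 5 or 6 lengths passed. For any to pass, at least 16 of 28 pairs, or 5 of 8 tests, must reach the smallest p, so 12 or 13 pairs and 4 lengths could not. Why fewer reached the smallest p without an *Arid1a* cKO library was not tested. The ratio to spermatid markers gave 0 adjusted calls in each of these runs, and 4 unadjusted in place of 2 without *Arid1a* WT replicate 2. At 5.69 to 7.47 CPM in *Arid1a* WT, *Tmem95* rested on the fewest counts.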

Other observations

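The egg partner genes and the markers of earlier germ cells show how other parts of the same RNA moved. *Cd9*, the egg tetraspanin needed for fusion, which many somatic cells also express, rose by 0.58 (standard error 0.12), from 17.3 to 32.2 TPM in *Arid1a* WT to 29.1 to 32.6 TPM in *Arid1a* cKO. *Cd81*, a related tetraspanin, fell by 0.48 (standard error 0.07, edgeR adjusted p = 1.22e-05). Of 16 markers of spermatogonia and early spermatocytes, 12 were called higher and 4 lower by edgeR's quasi-likelihood test, against 36.5% and 37.5% of all genes. Their summed level was 234 to 266 TPM in *Arid1a* WT and 238 to 248 TPM in *Arid1a* cKO. This sum joined large changes in opposite directions, such as *Spo11* from a mean of 108 to 16.1 TPM and *Rec8* from 18.0 to 91.6 TPM. *Rec8*, the meiotic cohesin subunit, rose by 2.50 (standard error 0.06), a change the size of that of the fusion genes, and *Spo11*, which makes meiotic DNA breaks, fell by 2.68 (standard error 0.07).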
